A study of Mus musculus with 150 samples.

Results

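Granins and the proteins that process peptide hormones were followed through 34 tissues of inbred mice. The 8 genes listed were the granins Chga, Chgb and Scg2, the convertase partners Scg5 and Pcsk1n, and the enzymes Pcsk2, Cpe and Pam. A gene was measured where the array's annotation gave a probe set to it alone, which held for 7 of the 8, with 10 probe sets, among 8251 genes in all. The expression of Pcsk2 was not analysed here. Chga, Chgb and Cpe had 2 probe sets each, and the brighter one stands for the gene unless stated otherwise.

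Peptide hormones and neuropeptides are made as larger precursors that travel through the regulated secretory pathway. Granins are acidic proteins that gather with the precursors in dense-core vesicles of neurons and endocrine cells. Prohormone convertases cut the precursors at basic residues, Cpe removes the basic residues left at the cut ends, and Pam amidates the ends of many finished peptides. Scg5, also called 7B2, is the chaperone of convertase PC2, and Pcsk1n, or proSAAS, is an inhibitor of convertase PC1.

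Total RNA of wild-type mice, labelled with biotin, was read on 150 one-colour Affymetrix arrays. The strains were 129, DBA, AJ, C3H and B6, the last written B6 or BL6 in the labels. The 24 neural tissues came from 129 (43 arrays used), DBA (8 arrays) and B6 (47 arrays), and the 10 body tissues from all 5 strains with 1 array per strain and tissue, 50 in all. Titles carry numbers such as 2-1-2, and some join a pair of them with a plus sign. The labels do not explain these numbers and give neither age nor sex nor whether animals were pooled, so p-values cannot be tied to a spread between animals. For neural against body tissue they measure the spread between tissue means, some of which are parts of others, such as CA1 of hippocampus. In the other fits they measure the spread between these arrays, which may be technical. With 1 array per strain and tissue in the body, that spread also holds differences of a strain by tissue. The retina was sampled in B6 alone, motor cortex in DBA and B6, and entorhinal and perirhinal cortex in 129 and DBA. The columns of 129 hippocampus replicate 1 and DBA perirhinal cortex replicate 2 held the same values for all 12488 probe sets and were left out, which left 148 arrays. DBA entorhinal cortex replicate 2 and DBA perirhinal cortex replicate 1 stood apart in Pam and Scg5, and the DBA results are given with and without them.

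Levels are the deposited intensities of a probe set, on a linear scale. Their 75th percentile ran only from 166.6 to 184.8 over the arrays, and their median from 38.4 to 68.1. Values below the 20th percentile of all values, an intensity of 10.4, were raised to that floor before log2 was taken, so the size of a difference against a tissue at the floor depends on it. A difference between tissues passed the test at a limma adjusted p under 0.05 and a log2 difference of at least 1, and a difference between strains at the same adjusted p and at least 1.5-fold. Values after ± are standard errors (SE) of log2 differences unless SD is written. Levels of different genes were read by different probes and are not set against each other. In these tissue samples, fewer cells of a type and less RNA per cell cannot be told apart.

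Of the 7 measured genes 6, the granins Chga, Chgb and Scg2, the convertase partners Scg5 and Pcsk1n, and the enzyme Cpe, were higher in neural than in body tissue. Over the 98 neural arrays Pcsk1n ran from 18.3 to 4635 with a median of 2741, against −24.9 to 337 with a median of −3.16 over the 50 body arrays. Scg5 ran from 115 to 2539 with a median of 736 on neural arrays, against −0.08 to 195 with a median of 12.3 on body arrays. The choroid plexus held the low ends of both neural ranges, and the adrenal held the high ends of both body ranges. Without these 2 tissues, set aside with these values known, the arrays did not overlap for 5 of the genes. The share of all probe sets that separate in this way was not computed. Every array of the other 23 neural tissues exceeded every array of the other 9 body tissues for Chga, Chgb, Scg2, Scg5 and Pcsk1n. For Cpe this held in 19 of 24 neural tissues, and for Pam in 0 of 24.

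The test used 1 strain-adjusted mean per tissue, 24 neural against 10 body. Pcsk1n was higher by 7.10 ± 0.47 (limma adjusted p = 1.07e-14), Scg5 by 5.44 ± 0.30, Chgb by 5.41 ± 0.57, Scg2 by 5.33 ± 0.61, Cpe by 4.11 ± 0.55 and Chga by 3.19 ± 0.47 on the log2 scale, with adjusted p from 1.06e-16 for Scg5 to 6.07e-07 for Chga. Pam differed by 0.85 ± 0.28 (adjusted p = 0.0115), under the threshold of 1. Of all 9743 probe sets tested, 14.1% were higher in neural tissue by the same rule, and their median difference was −0.07, against 5.33 for the 7 genes. Pam passed without the adrenal (1.02), without the heart (1.01) and without both DBA arrays of low Pam (1.04). The second probe sets of Chga (1.93) and Cpe (3.70) passed in the same direction. That of Chgb read at most 59.2 on neural and 27.1 on body arrays and was too dim to be tested.

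**Figure D1:**
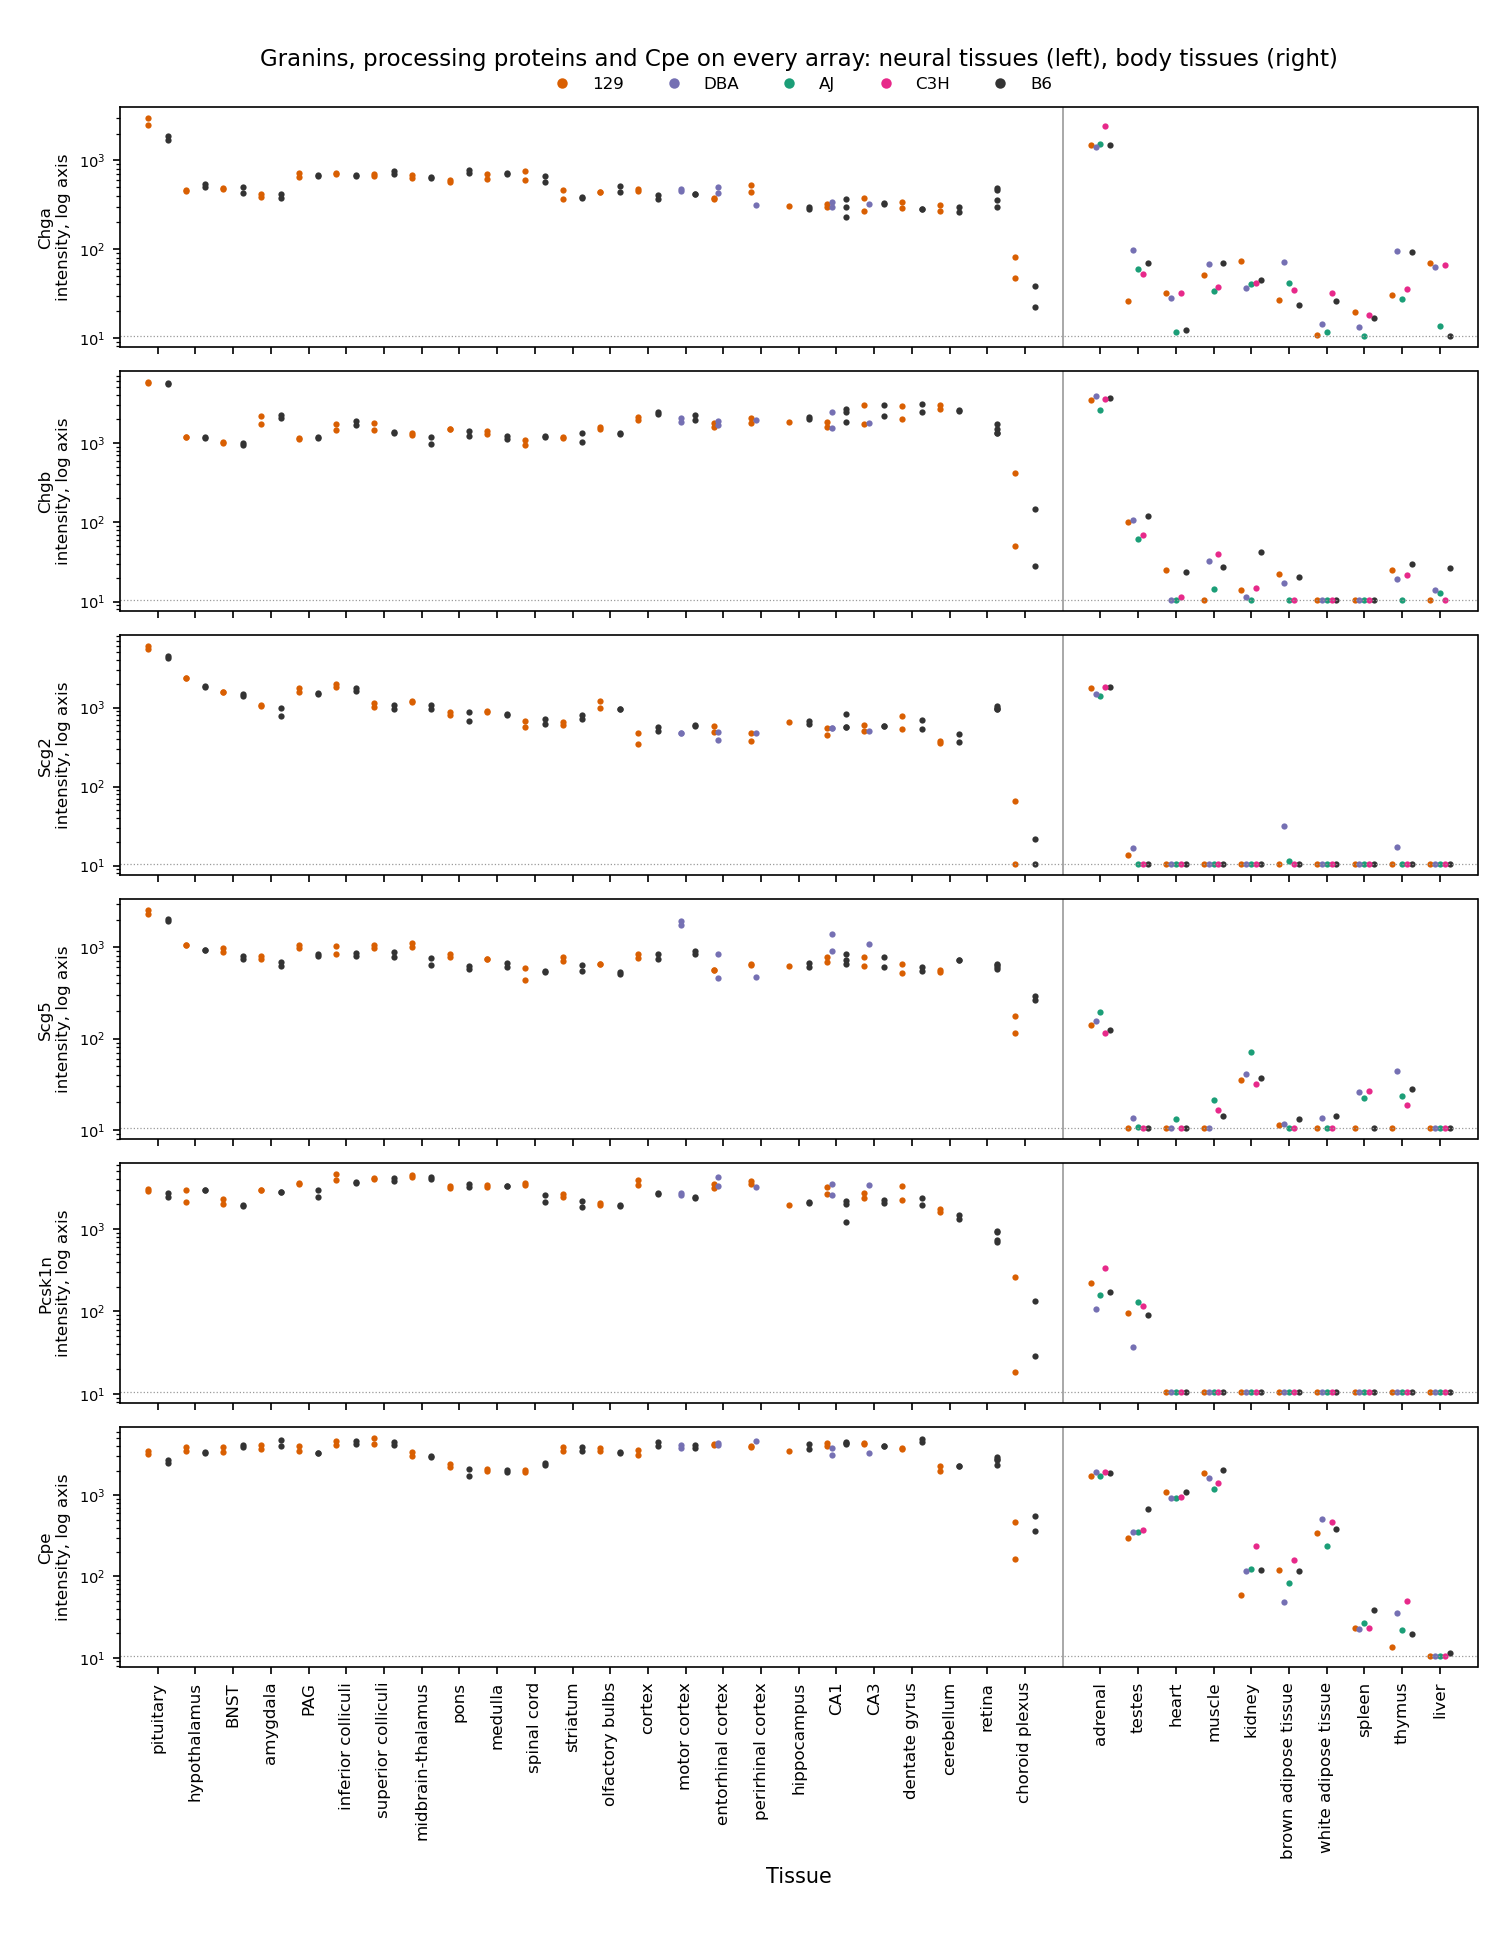
Intensity of Chga, Chgb, Scg2, Scg5, Pcsk1n and Cpe (log axis) on each of 148 arrays by tissue, with neural tissues on the left and body tissues on the right; each point is an array, coloured by strain, and values under the floor of 10.4 (dotted line) are drawn at it. Neural arrays other than choroid plexus lie above body arrays other than adrenal for all but Cpe, which is also high in muscle and heart.

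Chga, Chgb and Scg2 had their highest levels of all 34 tissues in the pituitary. Chga read 2525 and 2992 in 129 pituitary and 1689 and 1904 in B6 pituitary, and the next neural tissue, superior colliculi, read 663 to 767. Chgb read 5828 and 5742 in 129 pituitary and 5512 and 5687 in B6 pituitary, and Scg2 read 5538 and 5977 in 129 and 4269 and 4518 in B6. The pituitary arrays of these 3 genes lay above every array of the other neural tissues, and for Chga they overlapped those of the adrenal. How many of all probe sets had pituitary above the other neural tissues was not counted. The order of the next neural tissues differed by gene. Superior and inferior colliculi, medulla, periaqueductal grey (PAG), pons, midbrain-thalamus and spinal cord followed for Chga, with overlapping neighbours throughout. Cerebellum (2495 to 3031) and dentate gyrus (1999 to 3061) followed for Chgb, and hypothalamus (1842 to 2399) and inferior colliculi (1618 to 1963) for Scg2.

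Because Chga, Chgb and Scg2 were high together in pituitary and adrenal, the 120 reference bases before their transcription starts are shown (RefSeq promoters, GRCm38.p6), with TGACGT or its reverse complement ACGTCA in capitals. The overlap of both spells TGACGTCA, the consensus of the cAMP response element.
Chga, chr12:102554821-102554940, plus strand: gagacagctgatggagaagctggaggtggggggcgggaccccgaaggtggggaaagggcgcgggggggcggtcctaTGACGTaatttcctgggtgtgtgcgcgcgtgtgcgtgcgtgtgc
Chgb, chr2:132781522-132781641, plus strand: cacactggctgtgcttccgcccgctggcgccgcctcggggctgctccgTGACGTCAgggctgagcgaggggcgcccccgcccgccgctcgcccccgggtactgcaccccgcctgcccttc
Scg2, chr1:79440027-79440146, minus strand: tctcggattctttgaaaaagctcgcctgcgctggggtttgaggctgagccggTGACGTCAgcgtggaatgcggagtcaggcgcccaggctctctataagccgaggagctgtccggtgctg

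The match began at position −44 from the start in Chga, −72 in Chgb and −68 in Scg2. Scg5 and Pam, which also passed as higher in pituitary and in adrenal, had no match in the 120 bases before their starts. In windows of 300 bases, 250 before the start and 50 after it, TGACGT on either strand was found in 4 of the 7 listed genes that had a promoter in the table (Chga, Chgb, Scg2 and Scg5, the last at −175 and again after the start) and not in Pcsk1n, Pcsk2 or Pam. These 7 include Pcsk2 and not Cpe, so they differ from the 7 measured genes. TGACGT on either strand was in 7.51% of all 32851 promoters, and TGACGTCA, found in Chgb and Scg2, in 1.79%. These are matches of letters in the reference genome, and binding was not measured.

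Against the mean of the other 23 neural tissues, 5 of the 7 genes passed in pituitary, all higher. Scg2 was higher by 2.87 ± 0.15 (limma adjusted p = 1.08e-29), Chga by 2.43 ± 0.11 (adjusted p = 5.40e-33), Chgb by 1.99 ± 0.19 (adjusted p = 1.73e-15), Scg5 by 1.70 ± 0.12 (adjusted p = 1.22e-21) and Pam by 1.5001 ± 0.37 (adjusted p = 2.31e-04). Pcsk1n differed by 0.33 ± 0.21 and Cpe by −0.09 ± 0.11, neither of which passed. For Pam the difference was 2.45 ± 0.22 in 129 arrays alone, which passed, and 0.54 ± 0.37 in B6 arrays alone, which did not, nor did it pass in a fit with no strain term (adjusted p = 0.165). Of 8501 probe sets tested, 14.3% were higher in pituitary by this rule, with a median difference over all of them of 0.10, against 1.70 for the 7 genes. The summed intensity of 7 markers of pituitary hormone cells, among them Pomc, Prl and Gh, was 57376 to 62734 in pituitary, against 241 to 325 in cortex, and the sum of 6 neuron markers was 1691 to 2090 in pituitary, against 13339 to 13923 in cortex. The part of these cells in the differences was not tested.

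**Figure D2:**
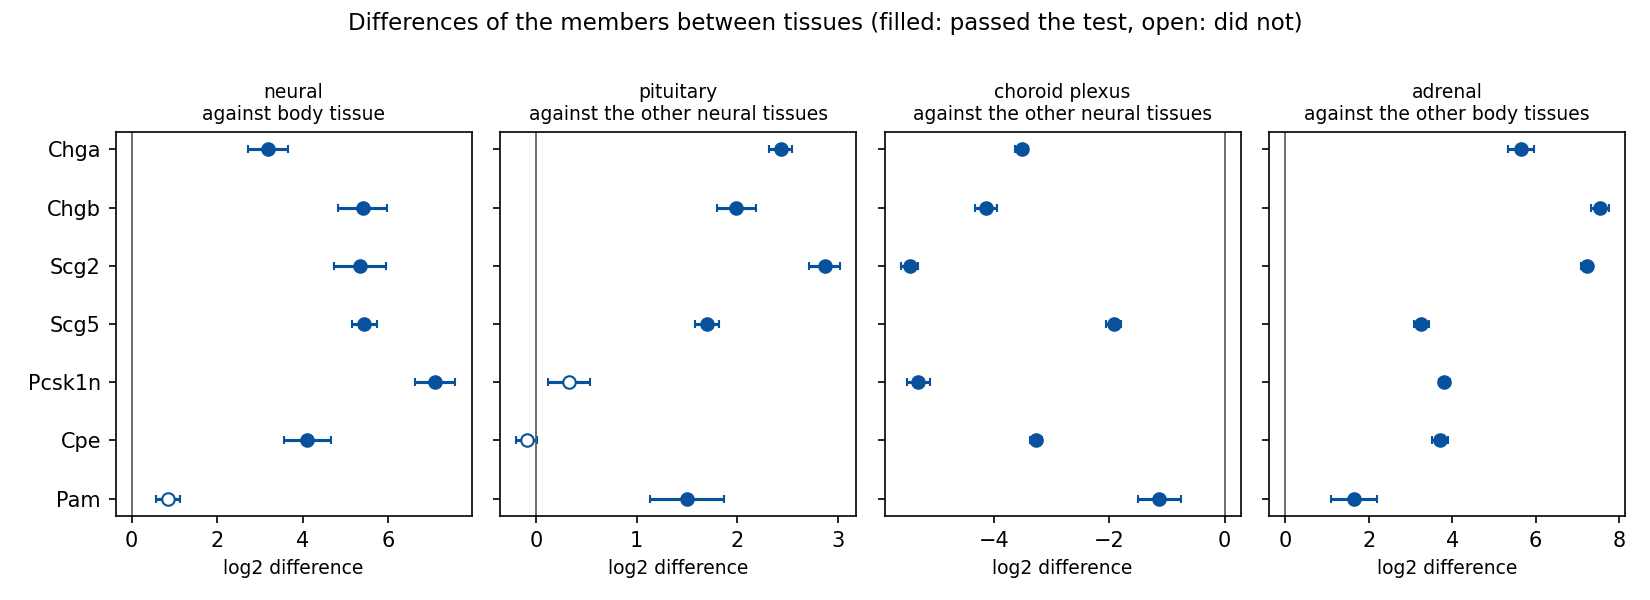
Log2 differences (point) with their standard error (bar) for the 7 genes in 4 comparisons, neural against body tissue and pituitary, choroid plexus and adrenal against the other tissues of their kind; filled points passed the test. All 7 are higher in adrenal and lower in choroid plexus, while Pcsk1n and Cpe are near 0 in pituitary.

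With the strains together in the fit, Scg2 was the only gene of the 7 that passed as higher in a neural tissue other than pituitary. It was higher in hypothalamus by 1.55 ± 0.15 (limma adjusted p = 4.28e-14), in inferior colliculi by 1.31 ± 0.15 (adjusted p = 4.66e-11), in PAG by 1.12 ± 0.15 (adjusted p = 4.81e-09) and in the bed nucleus of the stria terminalis (BNST) by 1.05 ± 0.15 (adjusted p = 4.06e-08). It read 2332 and 2399 in 129 hypothalamus and 1842 and 1885 in B6 hypothalamus, against 350 to 566 in cortex. The sum of pituitary hormone cell markers was 8773 on 1 hypothalamus array and had a median of 816 over the 4, and its part was not tested. Among all probe sets of these 4 tissues 2.53% were higher in hypothalamus, 1.28% in inferior colliculi, 1.85% in PAG and 2.41% in BNST.

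Retina and cerebellum each had a single gene of the 7 that passed as lower. Pcsk1n read 697 to 958 in retina, all B6, under every array of the other neural tissues but choroid plexus, with a log2 difference of −1.40 ± 0.21 (limma adjusted p = 1.15e-08), where 12.1% of probe sets were lower. Pam in cerebellum read 68.2 and 79.5 in 129, its lowest level in that strain's neural arrays, and 23.6 and 20.6 in B6. The fitted difference of Pam in cerebellum was −1.53 ± 0.37 (limma adjusted p = 4.05e-04), where 3.74% were lower. In 129 arrays alone it was −2.47 ± 0.22 and passed, and in B6 arrays alone, near the floor, it was −0.63 ± 0.37 and did not.

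The choroid plexus, the epithelium that secretes cerebrospinal fluid, was lower than the other neural tissues for all 7 genes. Scg2 differed by −5.47 ± 0.15 (limma adjusted p = 8.66e-49), Pcsk1n by −5.32 ± 0.21, Chgb by −4.15 ± 0.19, Chga by −3.52 ± 0.11, Cpe by −3.28 ± 0.11, Scg5 by −1.93 ± 0.12 and Pam by −1.13 ± 0.37 (adjusted p = 0.00458). The share of all probe sets lower in choroid plexus was 19.1%, with a median of −0.15 over all tested, against −3.52 for the 7 genes. Pam did not pass with the floor at the 40th percentile (−0.53), after quantile normalization (−0.94), in 129 arrays alone (−0.78), with no strain term (−1.11) or without B6 choroid plexus replicate 2 (−0.95). All 6 neuron markers were lower too, with a sum of 294 to 2273 in choroid plexus, against 13339 to 13923 in cortex, and 3 epithelial markers summed to 27729 to 28578. Their part in the differences was not tested.

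Levels differed widely between the 4 choroid plexus arrays. Chgb read 414 and 50.7 in 129 choroid plexus and 146 and 28.2 in B6 choroid plexus. Scg2 read 65.2 and 4.84 in 129 and 21.7 and 7.57 in B6. Within each strain, the array higher in Chgb was also the higher in Scg2 and Cpe, but in B6 it was the lower in Chga, with 22.2, against 38.8 on the other. Scg5 kept a clearer level, 174 and 115 in 129 and 291 and 261 in B6, above every body array but adrenal.

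Among body tissues the adrenal, whose medulla stores catecholamines in dense-core vesicles, was higher than the mean of the other 9 for all 7 genes. Chgb read 3439 in 129, 3932 in DBA, 2577 in AJ, 3598 in C3H and 3647 in B6 adrenal, against 2.93 to 121 on the other 45 body arrays. Scg2 read 1785 in 129, 1486 in DBA, 1384 in AJ, 1801 in C3H and 1840.2 in B6 adrenal, against −13.0 to 31.4 elsewhere in the body. Chga read 1508 in 129, 1415 in DBA, 1533 in AJ, 2471 in C3H and 1482 in B6 adrenal, against 4.89 to 97.3. The adrenal and the other body arrays did not overlap for these 3 granins. Such non-overlap was not counted over all probe sets.

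In the fit, Chgb was higher in adrenal by 7.55 ± 0.21 (limma adjusted p = 1.15e-29), Scg2 by 7.23 ± 0.13, Chga by 5.66 ± 0.31, Pcsk1n by 3.81 ± 0.14, Cpe by 3.71 ± 0.19, Scg5 by 3.26 ± 0.18 and Pam by 1.65 ± 0.54 (adjusted p = 0.0107). For Scg2 and Pcsk1n most other body tissues were at the floor on every array, so the size of these differences depends on the floor. By the same rule 7.52% of probe sets were higher in adrenal, with a median of −0.04, against 3.81 for the 7 genes. Pam did not pass without the DBA adrenal array (1.40, adjusted p = 0.0582) or with no strain term (adjusted p = 0.0746). The summed level of 4 chromaffin cell markers was 2053 to 3752, that of 6 markers of adrenal cortex 17616 to 22305 and that of 3 fat cell markers 5962 to 8624, against 5623 to 8539 in white adipose tissue, and their part in these differences was not tested.

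Cpe, the carboxypeptidase, had the widest pattern outside the nervous system. It read 1870.4, 1606, 1179, 1399 and 2072 in muscle of 129, DBA, AJ, C3H and B6, and 936 to 1103 in heart, against 1.84 to 11.4 in liver. The highest muscle array, of B6, lay above the lowest arrays of cerebellum, medulla, pons and spinal cord. It was higher in muscle by 3.50 ± 0.19 (limma adjusted p = 2.12e-19), in heart by 2.75 ± 0.19, in testes by 1.26 ± 0.19 and in white adipose tissue by 1.18 ± 0.19. It was lower in liver, with a difference of −4.54 ± 0.19, in thymus with −3.14 ± 0.19 and in spleen with −3.09 ± 0.19. The second Cpe probe set passed in the same direction in each of these tissues. Its differences were 3.29 in muscle, 2.80 in heart and −4.72 in liver. Of all probe sets 12.9% were higher in muscle, 11.3% in heart and 11.1% in white adipose tissue, and 20.2% were lower in liver, 16.0% in thymus and 19.8% in spleen.

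In testes Pcsk1n, Chgb and Cpe were higher than in the other body tissues. Pcsk1n read 95.4 in 129, 37.2 in DBA, 128 in AJ, 117 in C3H and 90.7 in B6 testes, while every array of the 8 body tissues other than adrenal and testes was at the floor. Pcsk1n was higher in testes by 2.59 ± 0.14 (limma adjusted p = 2.57e-20) and Chgb by 1.71 ± 0.21 (adjusted p = 1.52e-09), where 20.0% of probe sets were higher. Scg5 was higher in kidney by 1.26 ± 0.18 (adjusted p = 9.66e-08), with 31.6 to 71.5, where 11.4% were higher. Scg2 in testes read 4.75 to 16.9, with 3 of 5 arrays at the floor.

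Pam was higher in heart by 1.62 ± 0.54 (limma adjusted p = 0.0100), with 1377 in 129, 1984 in DBA, 41.4 in AJ, 21.4 in C3H and 21.8 in B6. Only 129 and DBA hearts were high, and the difference did not pass without the 129 heart array (1.14, adjusted p = 0.0987) or without the DBA one (0.85, adjusted p = 0.193). Pam was lower in thymus, with a difference of −1.64 ± 0.54 (limma adjusted p = 0.00709), and in testes, with −1.38 ± 0.54 (adjusted p = 0.0202), where 25.1% of probe sets were lower. In testes it did not pass without the 129 array (adjusted p = 0.0793) or without the DBA array (0.0695). Chgb was lower than the mean of the other body tissues in 6 tissues, from −1.05 in kidney to −1.73 in spleen, although not in kidney without its 129 or its DBA array nor in brown adipose tissue without its C3H array, and Chga in 3, heart (−1.33), white adipose tissue (−1.65) and spleen (−1.85). That mean includes the adrenal, and these tissues lay near the floor. Of all probe sets 10.5% were lower in kidney, 9.84% in brown adipose tissue, 8.78% in heart and 9.03% in white adipose tissue. Each of the 7 genes passed in at least 1 neural tissue, as 63.3% of probe sets did, and in at least 1 body tissue, as 81.6% did.

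Across the 34 tissues Chga and Scg2 were each other's nearest pattern, and Scg2 was the nearest to Chgb. The correlation of strain-adjusted log2 tissue means was 0.965 between Chga and Scg2, 0.946 between Chgb and Scg2 and 0.938 between Chga and Chgb. Resp18 (0.917) came next for Chga, and Pcsk1n (0.9445) lay between Scg2 and Chga for Chgb. Scg5 (0.933) came next for Scg2. The genes most like Scg5 were Scg3, another granin (0.965), Snap25 (0.958) and Pcsk1n (0.955). The genes most like Pcsk1n were Ina (0.977), Prkar1b (0.976) and Snap25 (0.976), those most like Cpe were Meg3 (0.928), Slc4a3 (0.913) and Pfn2 (0.910), and those most like Pam were Rrm2b (0.715), Rufy1 (0.707) and Fam171a1 (0.692). Within the 24 neural tissues Chga stayed closest to Scg2 (0.908), and Chgb was closest to Scg3 (0.910), with 0.6645 to Chga. There Scg5 was closest to Scg2 (0.863), Pcsk1n to Gdap1 (0.962), Cpe to Actl6b (0.944) and Pam to Scg5 (0.741). The tissues share strains and the contrast of brain with body, so these values describe likeness only, among 7198 genes.

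Other genes of the pathway moved in part with the 7. Of the other granin-like proteins, Scg3 was higher in neural tissue by 4.39 ± 0.27 and Resp18, a protein of endocrine secretory granules, by 4.54 ± 0.60, which made 2 of the 3 measured with none lower and a list median of 4.39. Over all probe sets 14.1% were higher and 13.6% lower in neural tissue, and 14.3% higher and 12.5% lower in pituitary. Resp18 was also higher in pituitary by 2.79 ± 0.15 and in adrenal by 4.05 ± 0.24. Of 7 other convertases, Pcsk1 was higher in neural tissue by 1.26 ± 0.34 and Pcsk7 lower, with a difference of −1.23 ± 0.21, and the list's median was −0.32. In pituitary Pcsk1, which encodes PC1, was higher by 3.73 ± 0.20 and Pcsk6 by 3.06 ± 0.20, 2 of the 6 tested with none lower and a median of 0.89.

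Of 8 other carboxypeptidases and modifying enzymes, 1 was higher and 1 lower in neural tissue, with a median of −0.33. Cyb561, the cytochrome that carries electrons into dense-core vesicles, was higher in neural tissue by 1.79 ± 0.48 and in adrenal by 3.27 ± 0.29. Ctsl, cathepsin L, was lower in neural tissue, with a difference of −1.40 ± 0.24, and Atp7a, a copper transporter, was higher in pituitary by 1.495 ± 0.28. Pam needs copper and ascorbate to work. Of 8 proteins of the vesicle membrane and of release, 5 were higher in neural tissue, among them Cadps (5.46 ± 0.39), Kif1a (4.38 ± 0.25) and Ptprn (2.73 ± 0.25), and Rab3d was lower (−1.66 ± 0.39), with a list median of 1.90. In pituitary the list split, with Rab3d (3.39 ± 0.20) and Syt4 (1.05 ± 0.20) higher and Cadps (−1.79 ± 0.16) and Kif1a (−1.51 ± 0.19) lower and a median of 0.61. In adrenal 2 of its 5 tested genes were higher, Cadps (2.30 ± 0.20) and Rab3d (1.12 ± 0.16), with none lower. Over all probe sets 7.52% were higher and 6.50% lower in adrenal.

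Peptide precursors are the cargo of these vesicles. In neural tissue 8 of 22 tested were higher and 1 lower, with a median of 0.84, led by Sst (5.36 ± 0.68) and Cck (5.34 ± 0.76). In pituitary 8 were higher, among them Prl (9.37 ± 0.41) and Pomc (8.21 ± 0.26), and 7 lower, among them Sst (−6.22 ± 0.16). In hypothalamus 13 were higher and 1 lower, with a median of 1.40, where 2.53% of all probe sets were higher and 1.02% lower. In adrenal 4 of 12 were higher, Npy (5.34 ± 0.60), Gal (2.04 ± 0.18), Penk (1.73 ± 0.24) and Adm (1.35 ± 0.22), with none lower and a median of −0.10. Over all probe sets 14.1% were higher and 13.6% lower in neural tissue, 14.3% and 12.5% in pituitary, and 7.52% and 6.50% in adrenal.

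Pam was the gene of the 7 that differed between 129 and B6. The difference between 129 and B6 was known when Pam was taken up, so its test is given as a description. Pam was read by 1 probe set. On neural arrays Pam ran from 68.2 to 2103 with a median of 406 in 129 (n = 43), from 19.4 to 371 with a median of 309 in DBA (n = 8), and from 9.98 to 86.2 with a median of 33.9 in B6 (n = 47). On body arrays the medians of 10 tissues were 105 in 129, 92.8 in DBA, 19.7 in AJ, 53.3 in C3H and 23.7 in B6.

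The gap was widest in pituitary among the neural tissues. Pam read 1736 and 2103 in 129 pituitary and 54.3 and 42.0 in B6 pituitary, a 39.99-fold ratio of mean log2 levels. It read 895 and 935 in 129 superior colliculi and 45.9 and 50.3 in B6, and 595 and 622 in 129 hypothalamus and 40.5 and 33.9 in B6. In choroid plexus it read 256 and 198 in 129 and 14.4 and 9.98 in B6. The 129 arrays lay above the B6 arrays in each of these tissues, and in all 20 neural tissues that had both strains. Taking each probe set in each of these 20 tissues as a case, 129 lay above B6 without overlap in 23.7% of cases. The share of probe sets that separate in this way in all 20 tissues was not counted.

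In hippocampal subfields the ratio of 129 to B6 was 6.30-fold in CA1 and 5.83-fold in CA3. CA1 read 457 and 171 in 129, 302 and 315 in DBA and 86.2, 28.2 and 35.8 in B6, and CA3 read 432 and 172 in 129, 371 in DBA and 85.5 and 25.6 in B6. In both subfields the highest 129 array and the highest B6 array carried JD2 in their titles. In dentate gyrus the arrays with that title read 453 in 129 and 71.9 in B6, against 370 and 29.8 on the others. The part of this title set was not tested. In cortex Pam read 667 and 471 in 129 and 60.4 and 40.9 in B6, and in striatum 270.2 and 299 in 129 and 24.6 and 30.6 in B6. In olfactory bulbs the B6 arrays read 82.6 and 28.6 and the ratio was 5.32-fold. Superior colliculi were higher than the other neural tissues by 1.34 ± 0.22 in 129 arrays alone (limma adjusted p = 1.00e-04), and by 0.54 ± 0.37 in B6 arrays alone, which did not pass.

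**Figure D3:**
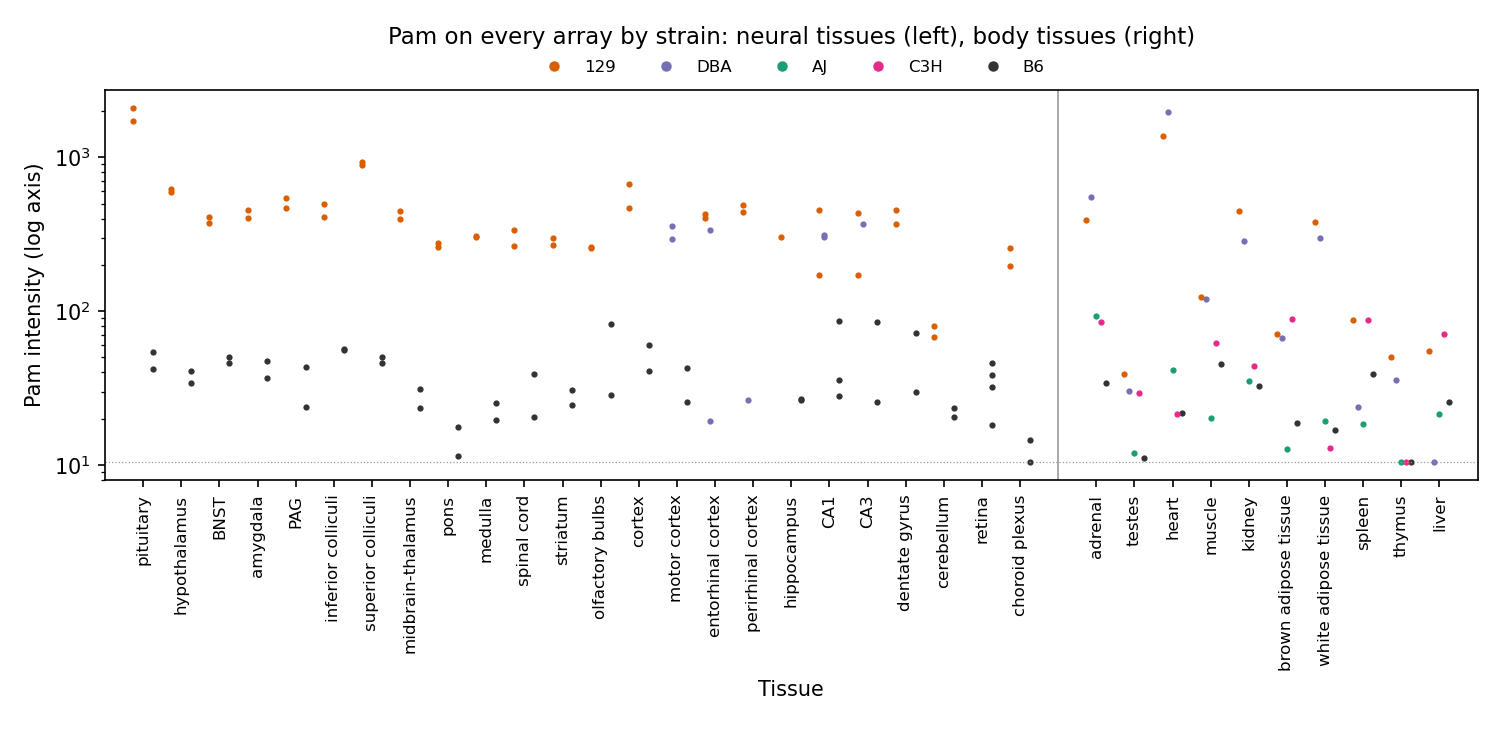
Pam intensity (log axis) on each of 148 arrays by tissue, coloured by strain, with neural tissues on the left and body tissues on the right; values under the floor of 10.4 (dotted line) are drawn at it. The 129 points lie above the B6 points in every tissue that has both. Taking each probe set in each body tissue as a case, 129 lay above B6 in 48.8% of cases. How many probe sets have 129 above B6 in every tissue was not counted. In neural tissue DBA lies near 129 except for 1 array in entorhinal and 1 in perirhinal cortex.

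In body tissue 129 and DBA were high and AJ, C3H and B6 low in heart, kidney, adrenal and white adipose tissue. Kidney read 451 in 129, 285 in DBA, 35.3 in AJ, 44.3 in C3H and 32.5 in B6. White adipose tissue read 378 in 129, 297 in DBA, 19.3 in AJ, 12.96 in C3H and 16.9 in B6. In heart, kidney and white adipose tissue 129 and DBA lay far above the other strains. Adrenal read 389 in 129, 556 in DBA, 92.3 in AJ, 84.5 in C3H and 34.2 in B6.

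In 129 and DBA the other 6 body tissues were dimmer. Muscle read 123 in 129, 119 in DBA, 20.1 in AJ, 62.3 in C3H and 45.3 in B6. Spleen read 87.0 in 129, 23.8 in DBA, 18.3 in AJ, 87.6 in C3H and 39.2 in B6, and liver 55.0 in 129, 10.1 in DBA, 21.5 in AJ, 70.7 in C3H and 25.6 in B6. In spleen C3H and 129 read nearly the same, in liver C3H was the highest strain, and in both tissues DBA was below B6. Brown adipose tissue, where C3H was also the highest, read 70.9 in 129, 66.5 in DBA, 12.8 in AJ, 88.5 in C3H and 18.6 in B6. Testes ran from 11.0 in B6 to 38.8 in 129 and thymus from 5.06 in C3H to 50.3 in 129.

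The fits give the sizes. Pam was higher in 129 than in B6 by 3.46 ± 0.13 over the 20 neural tissues (limma adjusted p = 1.11e-34), where 0.692% of probe sets were higher in 129, and by 2.75 ± 0.51 over the 10 body tissues (adjusted p = 3.76e-04), where 1.28% were. The neural difference exceeded the body one by 0.71 ± 0.34, which did not pass (limma interaction, adjusted p = 0.139). The same interaction passed with the floor at the 40th percentile (1.03, adjusted p = 0.0258) and without the heart (1.07, adjusted p = 0.0159). Within neural tissue the strain difference of Pam did vary by tissue (limma F test over 19 tissues, adjusted p = 0.00536), a test that 20.5% of probe sets passed.

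In body tissue Pam was also higher in 129 than in AJ by 2.78 ± 0.51 (limma adjusted p = 3.39e-04) and in 129 than in C3H by 1.94 ± 0.51 (adjusted p = 0.0272), and higher in DBA than in B6 by 2.22 ± 0.51 (adjusted p = 0.00783) and in DBA than in AJ by 2.25 ± 0.51 (adjusted p = 0.00790). The shares of probe sets higher in these comparisons were 1.59%, 0.594%, 0.841% and 0.852%. Pam did not pass between 129 and DBA (0.52 ± 0.51), between C3H and B6 (0.81 ± 0.51), between AJ and B6 (−0.03 ± 0.51), between AJ and C3H (−0.84 ± 0.51) or between DBA and C3H (1.41 ± 0.51, a comparison in which 0.00% of probe sets passed). These 10 pairs share their arrays and are not independent. Over the 5 strains together Pam and Chgb differed (limma F test, adjusted p = 7.04e-05 for Pam and 0.0218 for Chgb), as 13.5% of probe sets did. For Pam the F test and the pairs with 129 or B6 use the strains whose difference was known, so they too are a description.

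Among the 8 DBA neural arrays 2 read low for Pam. Entorhinal cortex replicate 2 read 19.4 for Pam, against 339 in entorhinal cortex replicate 1, and perirhinal cortex replicate 1 read 26.3, while the other DBA arrays in motor cortex, CA1 and CA3 read 296 to 371. Over 146 probe sets that differ between strains, all 98 neural arrays correlated best with their labelled strain. For the 2 arrays of low Pam the correlation with DBA was the lowest, r = 0.567 and 0.522, against 0.625 to 0.770 on the other 6 DBA arrays. At 29 probe sets that separate DBA from B6 the 2 arrays were nearer DBA at 23 and 22. The other DBA arrays were nearer DBA at 24 of 30 in CA1 replicate 1, 28 of 28 in CA1 replicate 2, 27 of 27 in CA3, 27 and 29 of 29 in motor cortex and 27 of 29 in entorhinal cortex replicate 1. Entorhinal cortex replicate 2 and perirhinal cortex replicate 1 carry the same title number, 2-1-2. DBA CA1 replicate 2 and DBA CA3, titled 2:1-2, read 315 and 371 for Pam. Why the 2 arrays of low Pam read so was not tested. The column left out as identical under both labels read 402 for Pam and was also nearest DBA (r = 0.779). Scg5 was low on the same 2 arrays, with 454 and 476, against 848 to 1934 on the other 6 DBA arrays.

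DBA and B6 were both sampled in CA1, CA3 and motor cortex, while entorhinal and perirhinal cortex entered the fit with 129 and DBA arrays only. With the 2 arrays of low Pam, Pam was higher in DBA than in B6 by 2.34 ± 0.59 (limma adjusted p = 0.0213, where 1.02% of probe sets were higher), and without them by 2.95 ± 0.31 (adjusted p = 2.74e-06). Pam in DBA against 129 differed by −1.23 ± 0.57 with them and by 0.19 ± 0.34 without them, and passed in neither case. Scg5 was higher in DBA than in B6 by 0.63 ± 0.16 (adjusted p = 0.0209) with them and 0.78 ± 0.11 (adjusted p = 1.09e-04) without them. Against 129, Scg5 in DBA differed by 0.35 ± 0.15 (limma adjusted p = 0.267) with them, which did not pass, and was higher by 0.69 ± 0.12 (adjusted p = 0.00133) without them. Scg5 read 1735 and 1934 in DBA motor cortex and 919 and 831 in B6 motor cortex, and 914 and 1404 in DBA CA1 against 831, 650.1 and 721 in B6 CA1. The DBA calls of Pam and Scg5 were lost without CA1 (limma adjusted p = 0.172 and 0.104), without CA3 (0.0535 and 0.0561) and without motor cortex (0.226 and 0.287). They were also lost with no filter on low values (0.0826 and 0.0653). A random block of the first part of the title number, taken within strain, lost them too (0.0564 and 0.0870). Both differences kept their direction in these fits. Pcsk1n differed by 0.52 ± 0.13 (adjusted p = 0.0224), under 1.5-fold, and passed without motor cortex (0.69).

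For the other 6 genes no difference between 129 and B6 passed. Between 129 and B6 in neural tissue their differences ran from −0.04 ± 0.05 for Cpe to 0.21 ± 0.10 for Pcsk1n. In body tissue they ran from −0.47 ± 0.20 for Chgb to 0.05 ± 0.30 for Chga. Chgb was lower in AJ than in B6 body tissue, with a difference of −0.91 ± 0.20 (limma adjusted p = 0.00227), lower in 9 of 10 tissues and at the floor in both in 1, where 5.96% of probe sets were lower. Chgb read 2577 in AJ and 3647 in B6 adrenal, and 62.3 in AJ and 121 in B6 testes. The other 8 tissues held at most 41.8, and with the floor at the 40th percentile the difference was −0.18 and did not pass. The second Cpe probe set was lower in AJ than in B6 (−0.67, adjusted p = 0.00102), while the brighter one differed by −0.38 ± 0.18 and did not pass.

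**Figure D4:**
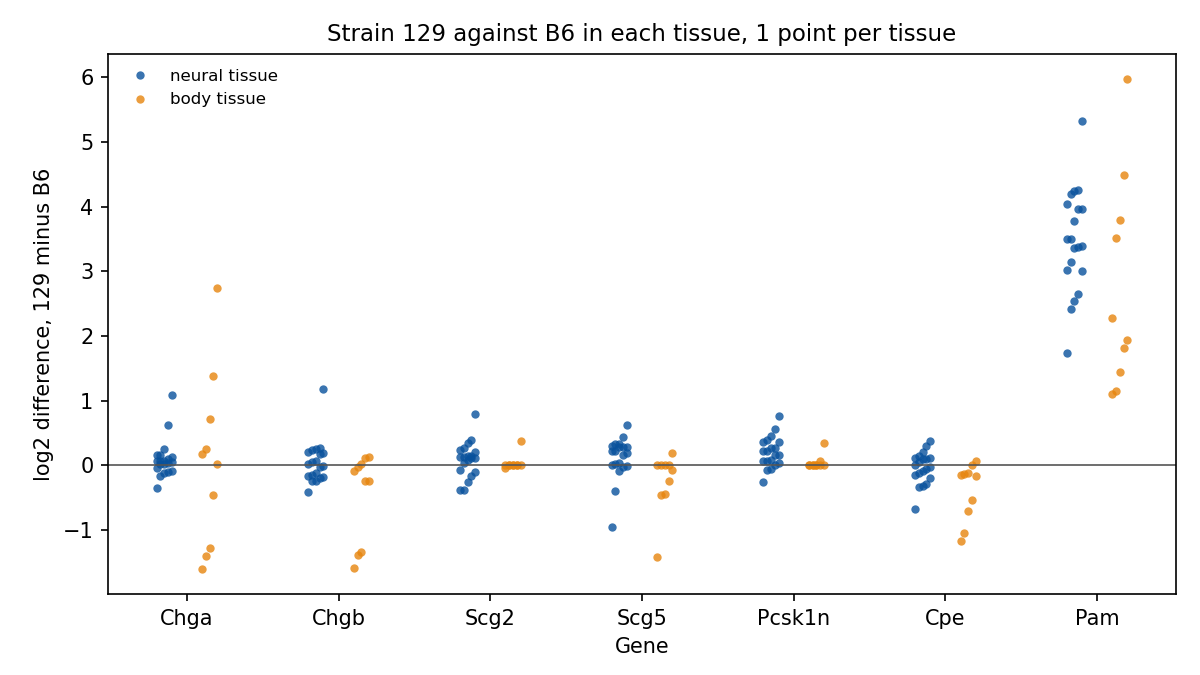
Log2 difference of 129 minus B6 for the 7 genes, 1 point per tissue, with 20 neural tissues (left of each pair) and 10 body tissues (right of each pair); body points rest on 1 array per strain. Pam lies above 1 in all 30 tissues. Each other gene has neural tissues on both sides of 0, although 129 is higher in 17 of 20 for Pcsk1n and 15 of 20 for Scg5. In body tissue 129 is lower in 8 of 10 for Cpe and 7 of 10 for Chgb. How many of all probe sets lean as far to 1 side was not counted.

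The strain difference varied among neural tissues for Chga (limma F test, adjusted p = 0.0130) and Scg5 (adjusted p = 4.13e-05). Chga read 81.1 and 47.3 in 129 choroid plexus and 22.2 and 38.8 in B6, and was lower in 129 pons, with 576 and 599, than in B6 pons, with 716 and 787. Without choroid plexus the test of Chga gave an adjusted p of 0.141. Scg5 was lower in 129 than in B6 choroid plexus and higher in 129 midbrain-thalamus, with 1008 and 1122, than in B6, with 634 and 753. Between neural and body tissue the difference of 129 and B6 varied for Scg5, 0.36 ± 0.12 (adjusted p = 0.0259), and Cpe, 0.36 ± 0.11 (adjusted p = 0.0217), where 9.38% of probe sets passed with that sign. Both were lost with the block of set number (adjusted p = 0.561 and 0.429).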

How the data were processed

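The deposited values are the authors' intensities per probe set, on a linear scale; the software that made them is not given in the sources used here. They held 12488 probe sets, 66 of them controls, and 5.97% of values were below 0. Of 12422 others, 10833 had 1 gene symbol in the platform annotation, 396 several and 1193 none. No gene was named from a probe set with several. The expression of Pcsk2 was not analysed here.

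Intensities were raised to the 20th percentile (10.4), and log2 was taken with no further scaling. Probe sets above the median log2 value (5.73) in at least 1 tissue were tested with limma 3.58.1 in R 4.3.3 (lmFit, eBayes with a trend), with strain and tissue as terms and Benjamini-Hochberg adjustment over all tested. Strain comparisons used tissue as a term. The fits were tested on simulated data. Correlations used tissue means.

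The members and gene lists were chosen with earlier results of these data known. Named genes were the members, up to 4 of each list past the threshold in a comparison, and the 3 genes most alike over all tissues and 1 over neural tissues. Alternatives changed the floor, filter, normalization, strain term, probe set, arrays and block; those on single strains, without both low-Pam DBA arrays and without single arrays of tissues other than pituitary, hypothalamus, choroid plexus, cerebellum and adrenal were chosen after seeing the data. Arrays or tissues were also left out in turn. The number of arrays limits the precision.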

Additional observations from a re-analysis of the deposited data

Results flagged for a closer look

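In 22 of 224 groups of arrays (a gene in a tissue, strains together) Dixon's test on floored log2 levels flagged 1 array. Where all other arrays were at the floor, any array above it was flagged, as for Scg5 in B6 liver at 10.4. Groups with every array at the floor could not be flagged, so the test's chance rate of about 1 in 20 does not hold here. Strains are together in these groups, and in body tissue, with 1 array per strain, strain and array cannot be told apart.

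For Chga these were C3H adrenal at 2471 (others up to 1533), 129 dentate gyrus replicate 2 at 343 (others up to 292), 129 medulla replicate 1 at 613 (others from 701), B6 olfactory bulbs replicate 1 at 511 (others up to 445) and 129 striatum replicate 1 at 459.6 (others up to 383). For Chgb they were B6 hypothalamus replicate 2 at 1147 (others from 1172), B6 kidney at 41.8 (others up to 14.8) and B6 spleen at 10.6 (others up to 10.1). For Scg2 they were DBA brown adipose tissue at 31.4 (others up to 11.4), B6 CA1 replicate 2 at 824 (others up to 570.1), 129 olfactory bulbs replicate 2 at 1226 (others up to 997) and DBA thymus at 17.0 (others up to 5.84).

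For Scg5 they were AJ heart at 13.1 (others up to 9.31), B6 liver at 10.4 (others up to 4.52) and DBA testes at 13.4 (others up to 10.9). For Pcsk1n they were 129 hypothalamus replicate 1 at 2104 (others from 2941) and DBA testes at 37.2 (others from 90.7). For Cpe they were 129 cerebellum replicate 2 at 2001 (others from 2267), B6 liver at 11.4 (others up to 8.54), B6 spleen at 38.4 (others up to 26.4) and B6 testes at 683 (others up to 371). For Pam it was DBA entorhinal cortex replicate 2 at 19.4 (others from 339).

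The difference of 129 and B6 varied among neural tissues for Chga (limma F test, adjusted p = 0.0130), Scg5 (adjusted p = 4.13e-05) and Pam (adjusted p = 0.00536). Of all probe sets 20.5% passed this test. Chga did not pass it without choroid plexus (adjusted p = 0.141) or after quantile normalization (0.106). Between neural and body tissue the strain difference varied for Scg5 (limma, adjusted p = 0.0259) and Cpe (adjusted p = 0.0217), where 9.38% of probe sets passed with that sign. Both were lost with the block of set number (adjusted p = 0.561 and 0.429).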

How the results depend on the processing

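The number of the 7 genes that passed kept within 1.5 times of its value under the settings tried, apart from those named here, and no difference that passed in any setting turned its direction. In cerebellum 1 gene passed, against 2 with the floor at the 40th percentile, 0 with no strain term, 3 after quantile normalization, 2 in 129 arrays alone and 0 in B6 arrays alone, and 1 to 2 with an array left out. Between AJ and B6 in body tissue 1 passed, and 0 with the floor at the 40th percentile. The interaction of strain with neural or body tissue passed for 2, Scg5 and Cpe. With that floor it passed for 1, Pam, while Scg5 and Cpe were lost. It passed for 1 after quantile normalization and for 1 to 3 with a tissue left out. Between C3H and B6 in body tissue 0 passed, and 0 to 1 with a tissue left out (Chgb, without muscle). Between DBA and B6 in neural tissue 2 passed, against 0 with no filter and 0 to 2 with a tissue left out (0 without CA1 or CA3, 1 without motor cortex). The replicate block took the first part of the title number, within strain, as a random effect. With it 0 passed in the DBA and B6 comparison and 0 in the interaction of strain with neural or body tissue. No other count changed by over 1.5 times with the block. The cause of these changes was not tested. Leaving arrays or tissues out gave 5 to 7 genes that passed in at least 1 body tissue, 6 to 7 in at least 1 neural tissue, and 6 to 7 in adrenal, choroid plexus and neural against body tissue. Body tissues had 1 array per strain, and intensities near the floor bear no order.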
